A study of Mus musculus with 12 samples.

Results

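The comparison of 6 h of BMP2 with 0 h asked which transcripts of mesenchymal breast cancer cells moved first when the cells were pushed toward fat. It compared 4 of the 12 RNA sequencing libraries of the series, 2 at 0 h and 2 at 6 h. The filter on low counts and the spread used all 12 libraries. Every gene that passed the filter was tested, which was 12740 of the 17090 genes in the table. The cells are MTΔECad, a mouse line whose label calls it mesenchymal and whose name marks the loss of E-cadherin. Cells of every group were seeded at 20000 cells per cm2 and kept overnight. The 6 h cells then followed a protocol that opens with 200 ng/ml human recombinant BMP2 alone for 3 days. Rosiglitazone, an agonist of the fat cell receptor PPARγ, joins at 2 µM for the next 4 days and stays alone for the last 3, so neither group compared here had received it by the protocol. The labels give 0 h as a time and name no vehicle for it. The series holds no untreated cells at 6 h, so BMP2, a change of medium and 6 h in culture cannot be told apart. RNA came from 2 independent experiments, which are the replicates, on a single line, so p-values measure the spread between those experiments, pooled over all times of the series. In bulk RNA, fewer cells that express a gene and less RNA per cell cannot be told apart.

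BMP2 is a secreted ligand that brings together type I and type II serine/threonine kinase receptors. The activated type I receptor phosphorylates SMAD1, SMAD5 and SMAD9, which join SMAD4, enter the nucleus and switch on genes within hours, without a need for new protein. Among the usual first targets are the Id genes, whose products hold back basic helix-loop-helix factors, and the inhibitory Smads, which damp the receptor that induced them. BMP2 and BMP4 are known to commit mesenchymal precursors to fat and bone lineages.

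Library totals were 12820802 and 15211035 counts at 0 h and 14614999 and 17522699 counts at 6 h. On the log2 CPM scale, 2 replicates correlated at 0.9946 at either time, and a 0 h library correlated with a 6 h library at between 0.9931 and 0.9943. The mesenchymal label was matched by high vimentin (Vim, 7299 and 7046 CPM at 0 h), N-cadherin (Cdh2, 295 and 292 CPM), fibronectin (Fn1) and Sparc, whereas Cdh11 had at most 1 count in a library. Cdh1, the E-cadherin gene, had 0.441 and 0.680 CPM at 0 h and 0.260 and 1.09 CPM at 6 h, and Epcam had 2 counts in 6 h replicate 1 and 0 in the other libraries compared. The keratins of simple epithelia were nonetheless abundant, with Krt8 at 547 and 559 CPM at 0 h. None of the 3 leukocyte, 7 endothelial and 4 muscle markers tested was called (0.746% of all genes were), which bears on change and not on presence. Ptprc, which marks leukocytes, had 1 count in the 4 libraries together. Cd14, the most abundant leukocyte marker tested, had 132 to 198 counts per library, and Flt1, the most abundant endothelial one, 370 to 600. Under 1 CPM at both times were 0 of the 3 leukocyte, 4 of the 7 endothelial and 2 of the 4 muscle markers. One library stood apart for a pair of transcripts picked out after their values were seen. Lars2 had 11.1 and 9.64 CPM at 0 h and 12.8 CPM in 6 h replicate 2 but 130 CPM in 6 h replicate 1, and Mir6236 had 66.4 CPM there against 4.19 to 16.6 CPM in the other libraries compared. Neither was called (adjusted p = 1 for each), and the source of these reads was not tested.

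At 6 h the profile had moved in a small set of genes, and mostly upward. Of 12740 genes tested, 95 (0.746%) were called at an adjusted p below 0.05 in edgeR's quasi-likelihood test, 68 of them higher (0.534%) and 27 lower (0.212%). At least a 2-fold change was met by 25 genes (0.196%), 20 higher and 5 lower, while 43 of the called genes changed by less than 1.5-fold. Without adjustment 753 genes (5.91%) had a p below 0.05. The same fit called 68.1% of genes at day 3 (33.1% higher) and 82.7% at day 10 (42.8% higher, 39.9% lower) against the same 0 h libraries, and the median log2 fold change over all genes at 6 h was 0.00060. In all 95 called genes the 6 h libraries lay outside the range of the 0 h libraries, which was also true of 34.6% of all genes tested. Called genes had a median of 45.0 CPM and all genes tested one of 26.8 CPM. The plot of change against level shows the called genes on either side of a narrow band.

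**Figure D1:**
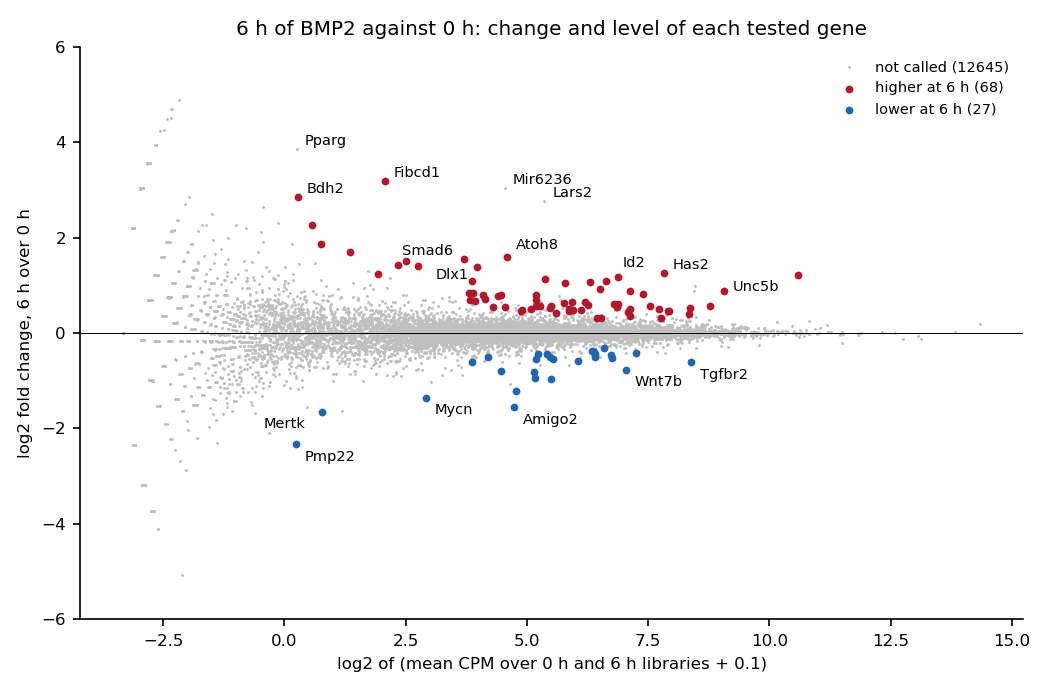
Log2 fold change at 6 h over 0 h (vertical axis) against log2 of the mean CPM of the 4 libraries plus 0.1 (horizontal axis), 1 point per tested gene. The 68 genes called higher are red, the 27 called lower are blue and the 12645 not called are grey; Pparg, Lars2 and Mir6236 lie far from 0 without being called.

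The number of calls rested on each of the 4 libraries. It was 43 without 0 h replicate 1, 35 without 0 h replicate 2, 53 without 6 h replicate 1 and 40 without 6 h replicate 2, the lone library being assumed to vary like the other groups. Of the 95 genes, 22 were called under all 22 alternative settings. The 18 risers among them included Fibcd1, Atoh8, Smad6, Serpinb8, Dlx1, Has2, Id2, Jag1, Smad7, Id1, Klf10, Pmepa1, Unc5b, Skil, Optn, Clcf1 and Smurf2, and the 4 that fell were Amigo2, Afap1l2, Tspan15 and Gm14137. No called gene changed sign under any of the 22 settings.

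No gene was called in the parts of the pathway that carry the BMP signal inward. Of 11 receptor and co-receptor genes tested, 0 were called (0.746% of all genes were). Among the 11 was Hjv, which had 0 counts in the 4 libraries compared. None of the 5 Smad transducers and none of the 11 extracellular antagonists was called either. At that share of all genes, lists this short would mostly hold no called gene, so these parts are not set apart. Bmpr1a, the type I receptor, had 306 and 326 CPM at 0 h and 317 and 341 CPM at 6 h, a log2 fold change of 0.06 with a 95% interval from -0.11 to 0.22. Per length of transcript Bmpr1a was the most abundant of these receptors, at 57.7 RPKM at 0 h. Bmpr2, the type II receptor, had 90.5 and 86.1 CPM at 0 h and 96.4 and 114 CPM at 6 h (interval -0.18 to 0.69). Acvr1, another type I receptor for BMPs, had the highest fold change of the list at 0.44 (14.2 and 18.7 against 19.98 and 24.8 CPM, adjusted p = 0.471). Its unadjusted interval, 0.11 to 0.77, lay above 0. That of the co-receptor gene Tgfbr3 lay below 0, at -0.55 to -0.09 (26.4 and 26.8 against 19.1 and 23.3 CPM, adjusted p = 0.419).

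Smad transducers other than Smad9 were measured well enough to give narrow intervals. Smad1 had 37.8 and 37.6 CPM at 0 h and 43.1 and 41.7 CPM at 6 h (interval -0.02 to 0.36). For Smad5 the values were 137 and 141 against 133 and 148 CPM (interval -0.15 to 0.17), and for Smad4, the shared partner, 103 and 104 against 107 and 105 CPM (interval -0.13 to 0.19). Smad9 had 1, 0, 0 and 1 counts in the 4 libraries and was not tested. Noggin (Nog), which traps BMP ligands, had 2.20 and 2.29 CPM at 0 h and 1.76 and 2.50 CPM at 6 h (interval -0.64 to 0.51). The most abundant antagonist or modulator was the secreted protease gene Htra1, at 868 and 989 CPM at 0 h and 825 and 905 CPM at 6 h.

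Of the BMP ligands, Bmp4 fell. It had 38.6 and 47.5 CPM at 0 h and 26.9 and 32.1 CPM at 6 h, a log2 fold change of -0.55 (SE 0.11, adjusted p = 0.0256), and was the 1 called gene of 5 ligands tested (0.212% of all genes were called lower). The call was lost without 0 h replicate 2 (adjusted p = 0.573) or 6 h replicate 1 (0.345). Gdf11 stood at 13.7 to 15.3 CPM in all 4 libraries, and the other ligands tested, Gdf5, Gdf9 and Gdf15, at under 1 CPM. Bmp2 transcripts were not analysed here.

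Intracellular inhibitors of the pathway were among the genes that rose. Of 14 genes tested 5 rose and none fell (background 0.534% higher and 0.212% lower), and the median log2 fold change of the list was 0.15. Every list here was chosen with earlier results of these data known, so its share beside the background is a description and was not tested. Smad6 (chromosome 9, 63953076 to 64022085 in GRCm38.p6), which blocks BMP type I receptors and SMAD1, went from 5.73 and 7.36 CPM to 18.02 and 20.7 CPM, a log2 fold change of 1.56 (SE 0.13, adjusted p = 5.55e-06). Smad7, which blocks receptors of the BMP and TGF-beta branches, went from 64.4 and 62.3 to 132 and 138 CPM. Smad6 and Smad7 therefore rose by 2.95-fold and 2.13-fold, and Smad7 remained the more abundant of the pair, at 30.4 against 6.52 RPKM at 6 h. In both genes the lowest 6 h library was well above the highest 0 h library.

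Next came 3 regulators of Smad activity or stability. Pmepa1, a membrane protein that sequesters receptor Smads, went from 104 and 93.5 to 175 and 190 CPM (log2 fold change 0.89, SE 0.092, adjusted p = 3.90e-05). Skil encodes SnoN, a nuclear co-repressor of Smad complexes, and went from 122 and 123 to 213 and 218 CPM (0.82, SE 0.072, adjusted p = 7.32e-06). Smurf2, a ubiquitin ligase for Smads and their receptors, went from 146 and 154 to 226 and 218 CPM (0.56, SE 0.0635, adjusted p = 0.000111). Relatives of these genes did not pass. Ski, the paralogue of Skil, had 92.9 and 95.6 CPM at 0 h and 108 and 99.5 CPM at 6 h (interval -0.04 to 0.32). Smurf1 had 73.5 and 66.6 against 74.5 and 71.4 CPM (interval -0.13 to 0.25). Bambi, a decoy receptor often induced by BMPs, was close to its detection limit, with 2, 5, 12 and 11 counts (log2 fold change 1.51, adjusted p = 1).

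Of the 4 Id genes, Id1 and Id2 rose. Id2 went from 72.8 and 72.4 CPM to 155 and 170 CPM (log2 fold change 1.17, SE 0.086, adjusted p = 1.26e-06). Id1 went from 37.5 and 35.1 to 78.3 and 70.9 CPM (1.04, SE 0.085, adjusted p = 3.75e-06). Both replicates of each gene at 6 h were about a doubling above both replicates at 0 h. Id3 was also higher in both 6 h libraries, at 64.9 and 59.9 CPM against 44.9 and 41.4 CPM, but its log2 fold change of 0.53 did not pass (adjusted p = 0.148, interval 0.24 to 0.82). It was called by DESeq2 (0.0186), in the fit of the 4 libraries alone (0.000437) and without either day 3 library (0.00279 each). Per length, Id2 was the most abundant member at 6 h, with 128 RPKM against 79.9 for Id1 and 65.5 for Id3. Id4 had 5, 1, 5 and 10 counts. The plot of pathway genes by library shows no overlap between the times in any of the 12 genes drawn, though the 0 h replicates of Bmp4 lie farther apart than its 2 groups do.

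**Figure D2:**
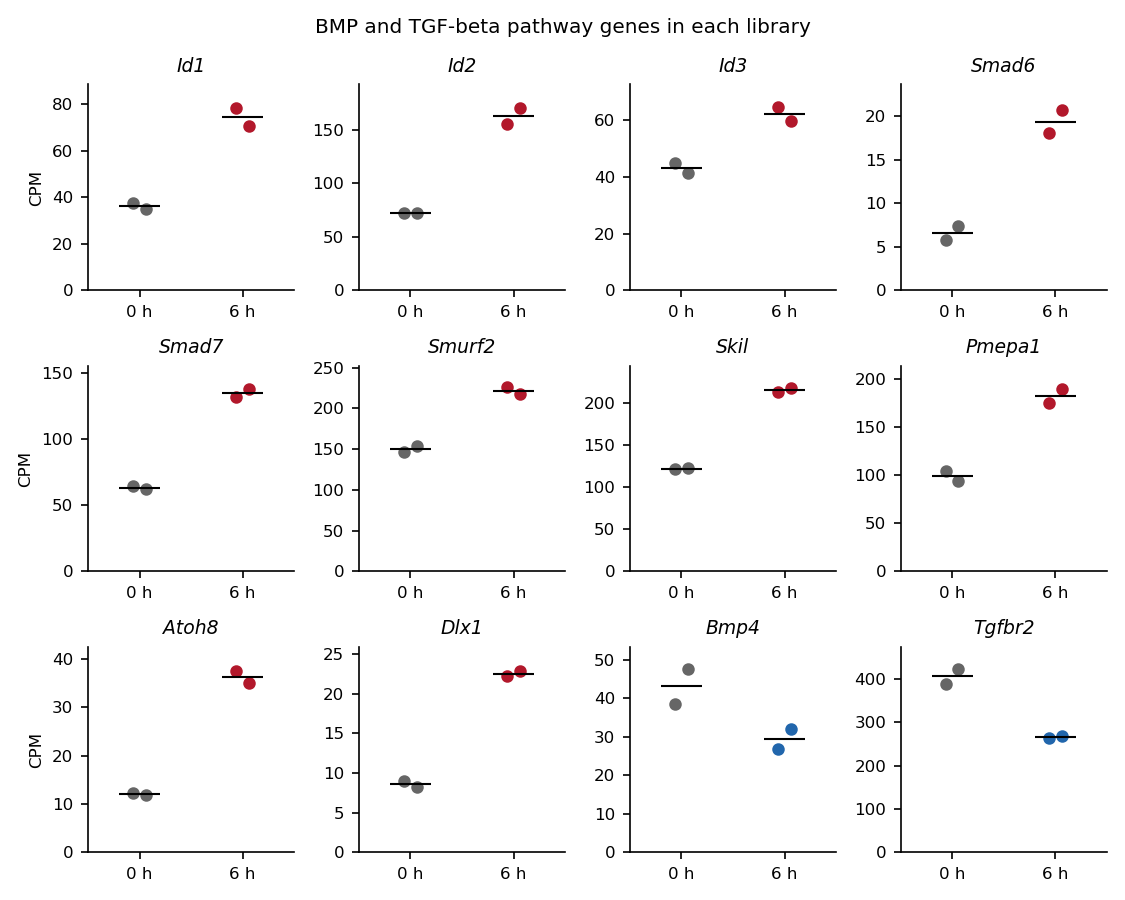
CPM in each library (points, 2 per time) at 0 h and 6 h for 12 genes of the BMP and TGF-beta pathways, with the mean as a bar; each vertical axis starts at 0. The 0 h and 6 h points are separate in every panel, rising in Id1, Id2, Id3, Smad6, Smad7, Smurf2, Skil, Pmepa1, Atoh8 and Dlx1 and falling in Bmp4 and Tgfbr2; Id3 did not pass the test.

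Transcription factors known as BMP or SMAD1/5 targets rose next to the Id genes. Of 19 tested, 5 were called and all 5 were higher (background 0.534%), in a list chosen with earlier results of these data known. The median log2 fold change of the list, 0.50, was the value of Runx2, which was not called. Under 1 CPM at both times were 2 of the 19. Atoh8 (chromosome 6, 72206174 to 72235780), a basic helix-loop-helix factor, went from 12.2 and 11.7 to 37.4 and 34.9 CPM (log2 fold change 1.59, SE 0.11, adjusted p = 9.38e-07), the highest fold of the list among called members. Dlx1, a homeobox factor, went from 9.03 and 8.22 to 22.2 and 22.8 CPM (1.39, SE 0.14, adjusted p = 3.66e-05). Klf10, also known as TIEG1, an early gene of TGF-beta family signalling, went from 63.9 and 61.0 to 117 and 120 CPM (0.93, SE 0.092, adjusted p = 2.45e-05). All 3 were clear of overlap, as was every called gene, and were called in every alternative setting.

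The AP-1 subunit gene Junb and the repressor gene Hes1 made up the rest. Junb had 88.9 and 98.2 CPM at 0 h and 141 and 144 CPM at 6 h (log2 fold change 0.60, SE 0.090, adjusted p = 0.00221). It lost its call without 0 h replicate 1 (0.0667). Hes1 had 37.6 and 35.7 against 52.7 and 52.0 CPM (0.52, SE 0.091, adjusted p = 0.00788) and lost its call without any 1 of the 4 libraries compared (up to 0.179, without 0 h replicate 2). Other factors of the list did not pass. Gata3 had 34.0 and 34.0 CPM at 0 h and 40.3 and 45.4 CPM at 6 h (adjusted p = 0.132). Runx2, which directs bone formation, had 10.1 and 13.2 against 13.7 and 19.2 CPM (adjusted p = 0.890, interval -0.02 to 1.02). Msx1 and Msx2, homeobox genes induced by BMPs in embryos, had log2 fold changes of 0.22 and 0.01 (intervals -0.26 to 0.69 and -0.44 to 0.47).

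Promoters were read for the letters that SMAD complexes and AP-1 are known to bind, in the 250 bases before each RefSeq transcript start (GRCm38.p6) and on both strands. Of the 68 risers 50 had such a sequence. The SMAD1/5 core GGCGCC was found in 38.0% of these genes and in 28.4% of their promoters, against 19.7% of the 10038 tested genes with a promoter and 16.6% of their promoters. Of the 27 genes that fell 19 had a sequence, and 6 of the 19 (31.6%) held it. The AP-1 letters TGANTCA were in 9 of the 50 risers, 3 of the 19 fallers and 5.84% of the 10038 genes. The Smad palindrome GTCTAGAC was in none of the 50 risers and 19 fallers and in 0.259% of the 10038 genes. Called genes without a sequence were not read. Promoters of risers also held more G and C, with a median of 62.8% against 59.6%. These are counts of letters and were not tested. The promoter of Id2 is printed because it holds the core and that of Jag1, a riser described below, because it holds none of these patterns. Those of Smad6, Atoh8 and Dlx1, not printed, held none of them either. Each is given 5′ to 3′ on the gene's strand, from the base farthest upstream to the last base before the start, with GGCGCC in capitals.
Id2, chr12:25096093-25096342, minus strand: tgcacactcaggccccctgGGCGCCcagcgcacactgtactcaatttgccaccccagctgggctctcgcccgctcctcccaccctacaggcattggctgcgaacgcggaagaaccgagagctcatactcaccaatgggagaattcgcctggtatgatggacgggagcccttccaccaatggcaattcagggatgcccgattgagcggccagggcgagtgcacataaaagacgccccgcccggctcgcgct
Jag1, chr2:137116521-137116770, minus strand: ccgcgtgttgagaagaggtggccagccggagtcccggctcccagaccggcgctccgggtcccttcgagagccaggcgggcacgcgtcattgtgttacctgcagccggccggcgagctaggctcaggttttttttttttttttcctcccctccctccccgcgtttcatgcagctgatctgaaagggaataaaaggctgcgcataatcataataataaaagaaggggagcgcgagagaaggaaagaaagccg

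On the TGF-beta side, a receptor fell while several target genes rose. Tgfbr2, the type II receptor that binds TGF-beta, went from 389 and 424 CPM to 263 and 269 CPM (log2 fold change -0.61, SE 0.12, adjusted p = 0.0452). Its call was lost without any 1 of the 4 libraries compared (adjusted p up to 0.403, without 0 h replicate 2), without any 1 library of day 5 or day 10 (up to 0.102) and with a replicate block (0.0825). Tgfbr1, the type I partner, had 112 and 114 CPM at 0 h and 113 and 119 CPM at 6 h (interval -0.23 to 0.30). In the list of ligands and receptors, 14 genes were tested, of which 1 rose and 1 fell (background 0.534% and 0.212%). The riser was Ltbp2, a matrix protein related to those that hold latent TGF-beta. Ltbp2 went from 45.3 and 57.2 to 97.3 and 117 CPM (1.06, SE 0.13, adjusted p = 0.00150), though not in the fit of the 4 libraries alone (0.0942).

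Of 25 TGF-beta target genes 4 rose and none fell (background 0.534% higher), with a median log2 fold change of 0.26. This list too was chosen with earlier results of these data known. Ccn1, a matricellular protein also listed among YAP targets, went from 349 and 360 to 499 and 550 CPM (log2 fold change 0.57, SE 0.097, adjusted p = 0.00783). Ltbp2, given above, also belongs to this list. Timp1, an inhibitor of matrix metalloproteinases, went from 279 and 282 to 364 and 375 CPM (0.39, SE 0.082, adjusted p = 0.0307). Leaving out either 0 h library or 6 h replicate 2 ended the call of Ccn1 (adjusted p up to 0.135), and leaving out any 1 of the 4 libraries that of Timp1 (up to 0.308).

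Ccn2, the relative of Ccn1, had 218 and 257 CPM at 0 h and 385 and 555 CPM at 6 h. Its 6 h replicates lay far apart, and its log2 fold change of 0.98 did not pass (adjusted p = 0.274, interval 0.41 to 1.56). Acta2, smooth muscle actin, had 2047 and 2004 CPM at 0 h and 2033 and 2302 CPM at 6 h (interval -0.55 to 0.75). Col1a2 had 238 and 251 against 233 and 221 CPM (interval -0.38 to 0.16). The list of 39 collagen and matrix genes held no called gene (0.746% of all genes were called), with a median log2 fold change of 0.05. At that share a list of this size would often hold none.

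In the Notch pathway 2 of 23 genes rose and 1 fell (background 0.534% and 0.212%). Jag1, a Notch ligand, went from 27.3 and 24.7 to 59.4 and 54.1 CPM (log2 fold change 1.13, SE 0.105, adjusted p = 1.33e-05). Hes1, a Notch target as well as a BMP target, was the second riser, with the values given above. Dtx4, a ubiquitin ligase that acts on Notch, went from 91.1 and 108 to 66.4 and 74.3 CPM (-0.50, SE 0.11, adjusted p = 0.0427). It lost the call without 0 h replicate 2 (0.676), either 6 h library (up to 0.421) or either day 5 library (up to 0.0581). Hey1, a target of both pathways, had 1.32 and 0.927 CPM at 0 h and 1.69 and 1.79 CPM at 6 h (adjusted p = 0.941).

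Among 13 transcription factors of the epithelial-mesenchymal transition, 2 rose and none fell (background 0.534% higher and 0.212% lower). Snai1, a repressor of Cdh1, went from 9.55 and 10.3 to 18.6 and 17.1 CPM (log2 fold change 0.85, SE 0.13, adjusted p = 0.00279). It lost its call without 0 h replicate 1 (0.0688) or 6 h replicate 1 (0.0511). Foxc1, a forkhead factor, went from 27.1 and 29.0 to 36.2 and 43.2 CPM (0.50, SE 0.10, adjusted p = 0.0319). Its call was lost without either 0 h library, 6 h replicate 2 or either day 10 library (up to 0.520). Zeb1, Zeb2, Twist1 and Snai2 were not called, with log2 fold changes between -0.16 (Twist1, interval -0.42 to 0.10) and 0.19 (Snai2, interval -0.20 to 0.57). The 18 mesenchymal and 10 epithelial markers tested held no called gene (0.746% of all genes were called). In the fit of the 4 libraries alone, 2 epithelial markers were called lower. Krt8 and Krt18 had intervals of -0.49 to 0.10 and -0.44 to -0.01.

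Of 23 Wnt targets and modulators, 1 rose and 1 fell (background 0.534% and 0.212%). Wnt7b, a secreted ligand, went from 148 and 184 to 90.8 and 104 CPM (log2 fold change -0.77, SE 0.12, adjusted p = 0.00579). Its call was lost without 0 h replicate 2 (0.0919) or 6 h replicate 1 (0.0906) and in the fit of the 4 libraries (0.164). Tcf7, a nuclear partner of beta-catenin, went from 11.2 and 10.0 to 19.3 and 18.3 CPM (0.83, SE 0.15, adjusted p = 0.00894), and its call was lost without any 1 of the 4 libraries (up to 0.232). Outside the list and picked after their values were seen, the Wnt receptor gene Fzd5 rose from 16.0 and 15.9 to 23.2 and 23.4 CPM. The Wnt inhibitor gene Apcdd1 fell from 99.3 and 94.7 to 70.9 and 71.5 CPM. Both lost their calls without any 1 of the 4 libraries compared (up to 0.197 and 0.133).

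Has2, the main hyaluronan synthase of mesenchymal cells, went from 130 and 136 to 307 and 332 CPM (log2 fold change 1.26, SE 0.095, adjusted p = 2.37e-06). How the authors' counts treated strand is not given in the sources used here, so reads from Has2 and from its antisense gene cannot be told apart. Sdc3, a heparan sulfate proteoglycan, went from 88.3 and 99.2 to 130 and 145 CPM (0.55, SE 0.084, adjusted p = 0.00259), but not without 0 h replicate 1 (0.0795) or 6 h replicate 2 (0.0720). They were 2 of 17 genes tested for hyaluronan and proteoglycans (background 0.534% higher), while Cd44, a hyaluronan receptor, had 491 and 478 against 533 and 545 CPM (adjusted p = 0.845). Of 24 protease and inhibitor genes, 3 rose and none fell, again beside 0.534% and 0.212% of all genes. Timp1 was among them, and so was Adam12, a membrane metalloprotease, which went from 58.8 and 56.7 to 79.3 and 81.5 CPM (0.48, SE 0.073, adjusted p = 0.00279). Its call was lost without 0 h replicate 2 (0.0811) or 6 h replicate 2 (0.0532).

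Single members of 3 further lists rose. Vegfa, the angiogenic growth factor gene, went from 81.5 and 93.1 to 125 and 141 CPM (log2 fold change 0.61, SE 0.088, adjusted p = 0.00175). It lost the call without 0 h replicate 1 (0.0656) or 6 h replicate 2 (0.0532). Bdnf, a neurotrophin, had 48.1 and 47.7 CPM at 0 h and 65.2 and 70.9 CPM at 6 h (0.51, SE 0.089, adjusted p = 0.00764), and Arntl, the clock activator also called Bmal1, 18.4 and 19.2 against 28.4 and 26.8 CPM (0.55, SE 0.11, adjusted p = 0.0247). Bdnf lost its call without either 0 h library or 6 h replicate 2 (up to 0.191), and Arntl without any 1 of the 4 libraries (up to 0.283). They were 1 of 21 hypoxia and angiogenic genes, 1 of 23 growth factor ligands and 1 of 17 clock genes, where 0.534% of all genes rose. Clock and Per1 did not pass.

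Fibcd1 had the highest fold of the called genes and belongs to no list, as do Serpinb8 and Adra1b. Fibcd1, a membrane receptor for chitin and other acetylated groups, was counted 15 and 9 times at 0 h but 113 and 138 times at 6 h. This is 1.102 and 0.556 CPM against 7.35 and 7.49 CPM, a log2 fold change of 3.18 (SE 0.32, adjusted p = 4.65e-05) and a ratio of counts of 9.22 (95% counting interval 6.06 to 14.7, which covers counting error only). Serpinb8, an intracellular serine protease inhibitor, rose from 2.50 and 3.28 to 8.72 and 7.87 CPM (1.503, SE 0.20, adjusted p = 0.000746). Adra1b, an alpha-1 adrenergic receptor, rose from 2.57 and 2.84 to 7.22 and 7.38 CPM (1.43, SE 0.22, adjusted p = 0.00306).

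Another 3 of the 15 risers ranked by fold were less secure. Gse1 had 3.52 and 3.77 CPM at 0 h and 8.72 and 10.7 CPM at 6 h (adjusted p = 0.0461). Irf5, an interferon regulatory factor, had 2.06 and 2.35 against 5.60 and 4.88 CPM (adjusted p = 0.00672). Adgrg3, an adhesion G protein-coupled receptor, had 11.2 and 7.42 against 23.4 and 16.2 CPM (adjusted p = 0.0387). Gse1 lost its call without any 1 of the 4 libraries (up to 0.412) or of day 7 or day 10 (up to 0.102). Irf5 lost it without either 0 h library or 6 h replicate 1 (up to 0.127) and with DESeq2 (0.0642), and Adra1b without either 0 h library (up to 0.0617). Adgrg3 lost it without 0 h replicate 2 (0.459), 6 h replicate 1 (0.293) or any 1 library of days 5, 7 and 10 (up to 0.0825), and in the fit of the 4 libraries (0.312).

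Some risers with high folds were scarce at 0 h and were picked after their values were seen. Bdh2, a dehydrogenase gene, had 0.220 and 0.309 CPM at 0 h and 1.76 and 2.17 CPM at 6 h (ratio of counts 7.38, 95% counting interval 3.54 to 17.8; adjusted p = 0.00362). Smoc1, a matrix protein known to modulate BMP signalling, had 0.514 and 0.433 against 2.08 and 2.50 CPM (ratio 4.91, interval 2.76 to 9.40; adjusted p = 0.0391). Sned1, another matrix protein, had 0.881 and 0.495 against 2.80 and 2.17 CPM (ratio 3.66, interval 2.22 to 6.30; adjusted p = 0.0228). Adgrg1, an adhesion receptor, rose from 1.17 and 1.11 to 4.29 and 3.20 CPM (adjusted p = 0.00347). Leaving out a 0 h or 6 h library ended these calls in Bdh2 (0 h replicate 1, 0 h replicate 2 and 6 h replicate 2, up to 0.0667), Smoc1 and Sned1 (each of the 4, up to 0.453 and 0.431) and Adgrg1 (0 h replicate 2, 0.0829). Smoc1 also lost it without a library of day 5 or day 10 (up to 0.0717).

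Another 6 risers with smaller folds were also picked after their values were seen. Unc5b, a netrin receptor, went from 374 and 385 to 704 and 689 CPM (log2 fold change 0.88, SE 0.078, adjusted p = 7.95e-06). Optn, the autophagy receptor optineurin, went from 12.1 and 12.9 to 20.4 and 22.7 CPM (0.79, SE 0.11, adjusted p = 0.00157), and Clcf1, a cytokine of the interleukin-6 family, from 48.3 and 46.4 to 77.5 and 70.3 CPM (0.64, SE 0.089, adjusted p = 0.00125). These 3 were called in all 22 alternative settings. Efnb1, an ephrin ligand, rose from 17.0 and 14.2 to 28.7 and 24.8 CPM, the integrin gene Itgb3 from 25.2 and 30.1 to 39.8 and 50.1 CPM, and the vitamin D receptor gene Vdr from 41.6 and 42.9 to 58.2 and 73.2 CPM. The calls of Efnb1 (without 0 h replicate 2 or 6 h replicate 1, up to 0.149), Itgb3 (without 0 h replicate 1 or 6 h replicate 2, up to 0.234) and Vdr (without either 0 h library, 6 h replicate 2 or day 10 replicate 2, up to 0.388) were not as stable.

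Among the genes that fell, those named by rank were led by Amigo2. Amigo2 (chromosome 15, 97244074 to 97247287), a cell adhesion protein, went from 36.9 and 42.5 to 13.2 and 13.7 CPM (log2 fold change -1.56, SE 0.17, adjusted p = 0.000149). Mycn, the N-Myc gene, went from 10.5 and 11.1 to 3.84 and 4.56 CPM (-1.35, SE 0.21, adjusted p = 0.00279), just missing the threshold without 0 h replicate 2 (0.0559) or 6 h replicate 1 (0.0562). Tspan15, a tetraspanin that guides the protease ADAM10, went from 46.6 and 47.0 to 26.5 and 22.4 CPM (-0.94, SE 0.12, adjusted p = 0.00111). In each of these genes both 6 h values were below both 0 h values, which naming by rank required.

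Afap1l2, an adaptor at actin filaments that was called in all 22 alternative settings, went from 53.1 and 66.0 to 28.2 and 32.7 CPM (log2 fold change -0.97, SE 0.13, adjusted p = 0.000746). Pdlim2, a cytoskeletal adaptor, went from 127 and 125 to 91.7 and 84.5 CPM (-0.52, SE 0.073, adjusted p = 0.00146), and Fmnl1, a formin, from 30.1 and 25.8 to 17.4 and 14.8 CPM (-0.80, SE 0.16, adjusted p = 0.0256). Ppl, the desmosomal linker periplakin, had 27.5 and 48.6 CPM at 0 h, where the replicates disagreed, and 14.6 and 18.2 CPM at 6 h (-1.21, SE 0.24, adjusted p = 0.0480). Ppl lost its call in 14 of 22 settings, among them the fit of the 4 libraries (0.733). Fmnl1 lost it without any 1 of the 4 libraries (up to 0.388) and with DESeq2 (0.0571), and Pdlim2 without 6 h replicate 2 (0.0532). A related formin gene, Fmnl3, picked after its values were seen, rose from 78.1 and 76.1 to 93.4 and 99.3 CPM (adjusted p = 0.0480), a call lost in 14 of 22 settings. Eps8, an actin capping and bundling protein, went from 84.9 and 74.1 to 55.1 and 50.2 CPM (adjusted p = 0.00894), and Cdc42ep4, an effector of the GTPase CDC42, from 48.8 and 61.9 to 37.2 and 38.5 CPM (0.0205). Eps8 lost its call without 0 h replicate 1 or 6 h replicate 2 (up to 0.183), and Cdc42ep4 without 0 h replicate 2 or either 6 h library (up to 0.520). The phosphatase gene Ppm1l and Fam214b fell by 0.51 and 0.60 on the log2 scale, calls lost without any 1 of the 4 libraries (up to 0.348 and 0.149) and for Ppm1l also without either day 10 library (0.0532 each).

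Both scarce genes with the deepest falls were picked after their values were seen. Pmp22, a membrane protein of growth-arrested cells and myelin, went from 1.69 and 1.92 to 0.325 and 0.380 CPM (log2 fold change -2.32, SE 0.39, adjusted p = 0.00540). Mertk, a receptor kinase for apoptotic cells, went from 2.06 and 2.78 to 1.04 and 0.543 CPM (-1.65, SE 0.32, adjusted p = 0.0201). Pmp22 lost its call without 0 h replicate 2 or either 6 h library (up to 0.0849), and Mertk without replicate 2 of 0 h or of 6 h (up to 0.377).

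Of 22 adipogenic transcription factors tested none was called (0.746% of all genes were), nor was any of 23 white adipocyte markers, 10 of which had under 1 CPM at both times. Other fits differed. The 4 libraries alone called 4 of these factors higher (254 genes called in all), leaving out both day 3 libraries 2 (134) and DESeq2 1 (106). The first 2 of these fits also called 1 white adipocyte marker lower. Of 19 inhibitors of adipogenesis, 1 rose (0.534% of all genes did), which was Hes1, given above. Cebpb and Cebpd, the early C/EBP factors of the fat cell cascade, had log2 fold changes of 0.04 and 0.08 (intervals -0.28 to 0.36 and -0.25 to 0.40). Cebpa had 19.2 and 18.7 CPM at 0 h and 19.8 and 21.7 CPM at 6 h. Zfp423, a factor known to make precursors respond to BMP, had 1, 0, 0 and 0 counts.

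Pparg (chromosome 6, 115360879 to 115490404), the gene for the receptor that directs fat cell formation, had a call that depended on the fit. Its counts were 2 in either 0 h library and 27 and 43 in the 6 h libraries, or 0.147 and 0.124 CPM against 1.76 and 2.33 CPM, with no overlap. The ratio of counts was 15.4 (95% counting interval 5.76 to 58.2). Its log2 fold change of 3.86 (SE 1.04) was not called in the fit of all 12 libraries (adjusted p = 0.319), in which its day 3 replicates had 46.1 and 25.3 CPM. Without day 3 replicate 1 the adjusted p was 1.91e-05, without day 3 replicate 2 it was 1.89e-05, and without both 2.26e-05. The fit of the 4 libraries (0.000328) and DESeq2 (8.37e-05) called it as well, while leaving out any 1 of the 0 h and 6 h libraries did not (0.521 to 1).

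Most other programmes showed no called gene at 6 h. In the fit of all 12 libraries, 24 of 41 lists had none. With 0.746% of all genes called, lists of this size would often hold none, so this does not set these programmes apart. Lists held 644 of the 12740 genes tested and 30 of the 95 called genes. The 30 mitosis and 32 DNA replication genes had medians of -0.01 and 0.02, and no member of the first list moved by more than 0.14. Top2a, a topoisomerase of dividing cells, had 1506 and 1456 CPM at 0 h and 1519 and 1465 CPM at 6 h (interval -0.30 to 0.32). Junb was the 1 riser of 23 AP-1 and immediate early genes (0.534% of all genes rose). The 26 ERK feedback, 23 SRF target, 19 NF-kB and 22 heat shock genes held no called gene. In the fit of the 4 libraries alone, 3 NF-kB genes were called higher and 1 lower. That fit also called 1 ERK feedback, 1 SRF target and 1 heat shock gene higher. The plot of list members shows called genes of the BMP inhibitor, Id and target factor lists right of 0. Some uncalled members, such as Bambi and Id4, lie farther right than some called members of their lists.

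**Figure D3:**
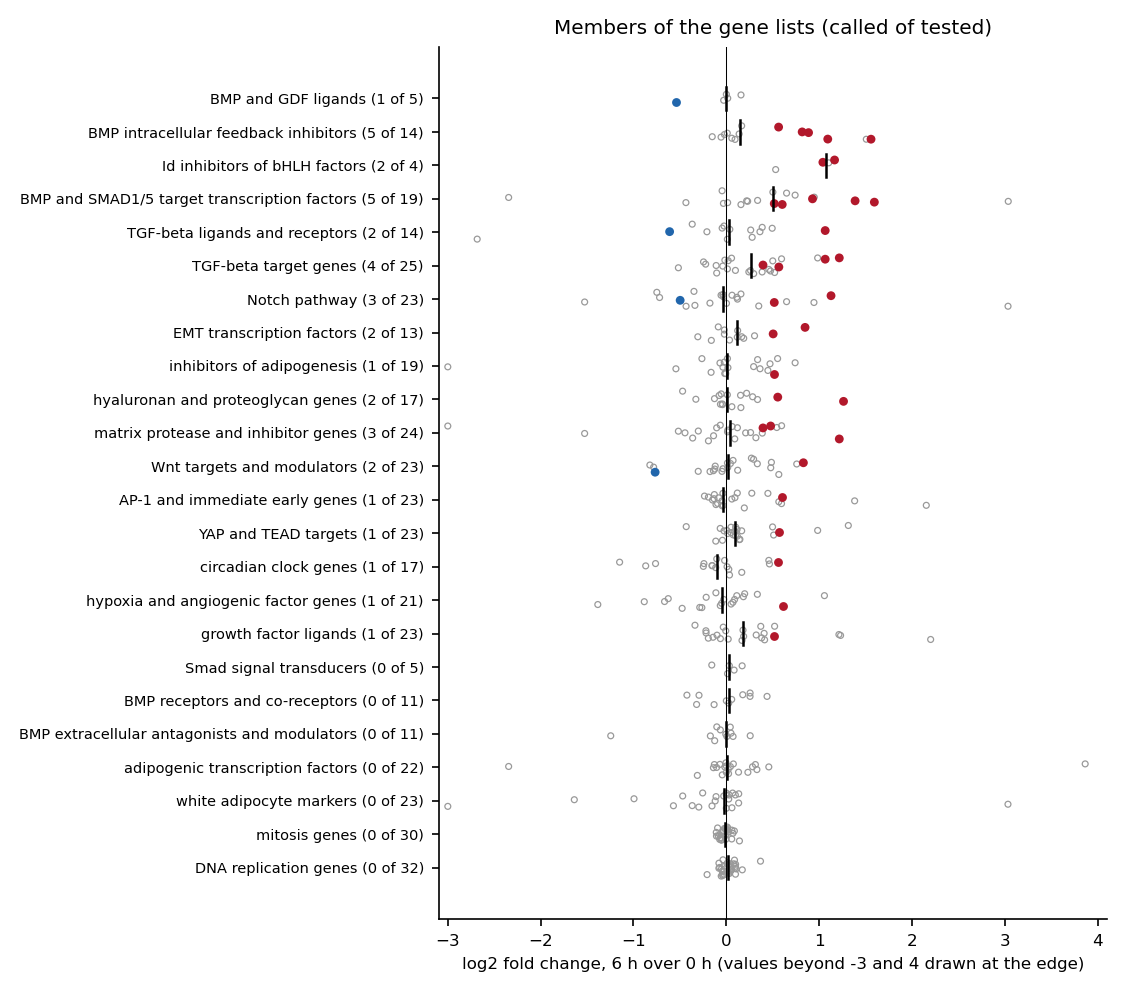
Log2 fold change at 6 h over 0 h of each tested member of the 17 lists with a called gene and of 7 lists with none; red and blue points are called higher and lower, open points are not called and black bars are list medians (values beyond -3 and 4 are drawn at the edge). The Id list has the median farthest from 0, at 1.07 over 4 genes.

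The later levels of the genes called at 6 h were read from the same fit. Comparisons of day 3 and day 10 with 0 h share the 0 h libraries with the 6 h comparison, so the values are set side by side only. Of the 68 risers, 30 had their highest mean at 6 h, 13 on day 3, 7 on day 5 and 9 each on days 7 and 10. Of the 27 fallers, 7 had their lowest mean at 6 h and 7 on day 7. Over all genes tested, 17.6% had their highest mean at 6 h and 17.6% their lowest. The call at 6 h itself kept 0 h from being the highest time of a riser or the lowest of a faller, so these shares are not compared.

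Some risers went on rising. Smad6 climbed from 6.54 ± 1.15 CPM (SD, n = 2) before treatment to 19.4 ± 1.91 by 6 h, 47.4 ± 1.98 by day 3 and 78.1 ± 4.84 by day 7. Id2 went from 163 ± 10.4 CPM at 6 h to 259 ± 32.9 at day 3 and 320 ± 9.11 at day 7, and was at 137 ± 6.84 at day 10. Id1 was at 74.6 ± 5.29 CPM at 6 h, 75.1 ± 5.22 at day 3 and 79.6 ± 5.37 at day 10. By the protocol the last 3 days before day 10 had rosiglitazone without BMP2, and the cause of these later levels was not tested. Atoh8 was highest at day 3, at 69.3 ± 0.808 CPM, and back at 17.1 ± 1.14 at day 10.

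Others were high at 6 h and below their starting level at day 3. Has2 went from 319 ± 17.4 CPM at 6 h to 50.1 ± 8.76 at day 3, against 133 ± 4.72 at 0 h. Fibcd1 went from 7.42 ± 0.0959 CPM at 6 h to 0.128 ± 0.0882 at day 3 and had 0 counts in both day 10 libraries. Jag1 was back at 22.7 ± 4.08 CPM at day 3 and then reached 89.8 ± 0.567 at day 7.

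The fallers also took different courses. Mycn, Wnt7b and Amigo2 were lowest at day 10, at 0.384 ± 0.218, 0.965 ± 0.282 and 2.89 ± 0.0307 CPM. Bmp4 was at 29.5 ± 3.63 CPM at 6 h and 116 ± 5.31 at day 3, then 9.45 ± 0.0634 at day 10. Tspan15 was lower than at 0 h at 6 h and day 3 (17.8 ± 3.05 CPM) and higher at day 10 (247 ± 16.3 CPM). Pparg, which the 6 h comparison did not call, averaged 2.05 ± 0.408 CPM there and reached 35.7 ± 14.7 by day 3 and 339 ± 4.47 by day 10.

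**Figure D4:**
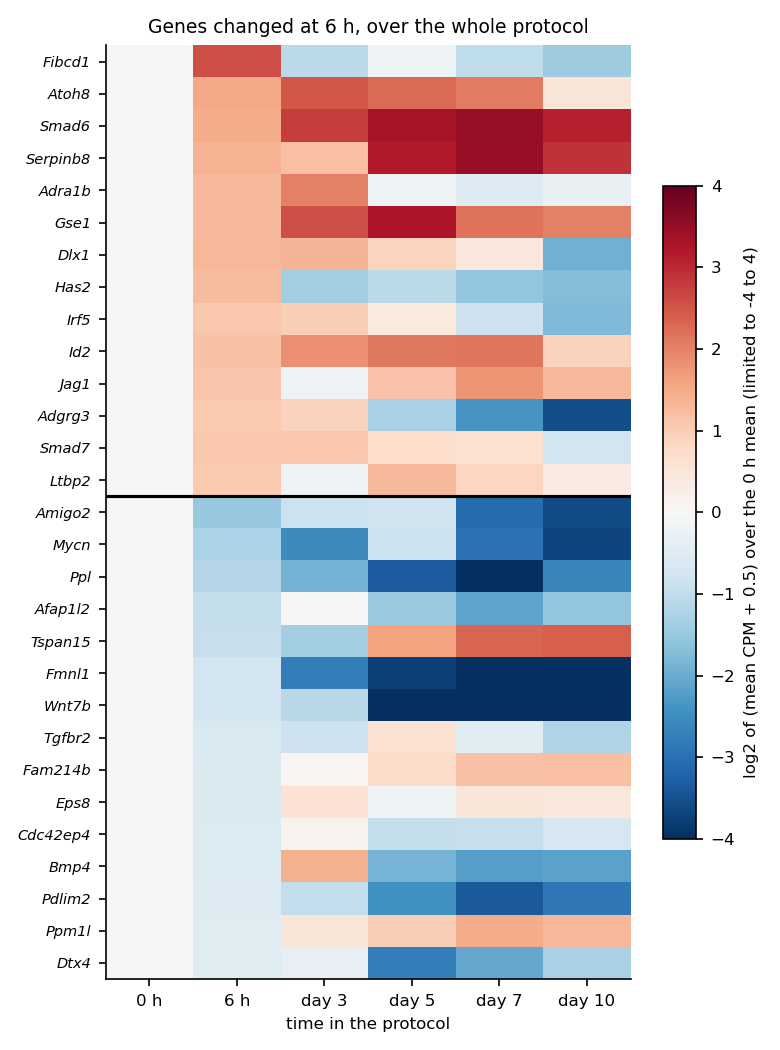
Mean level of 14 risers (above the line) and 15 fallers (below) named by rank at each of the 6 times, as log2 of (mean CPM + 0.5) over the 0 h mean, red higher and blue lower, limited to -4 to 4. Smad6, Serpinb8, Gse1 and Id2 stay red after 6 h, whereas Fibcd1 and Has2 are blue at day 3.

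**Figure D5:**
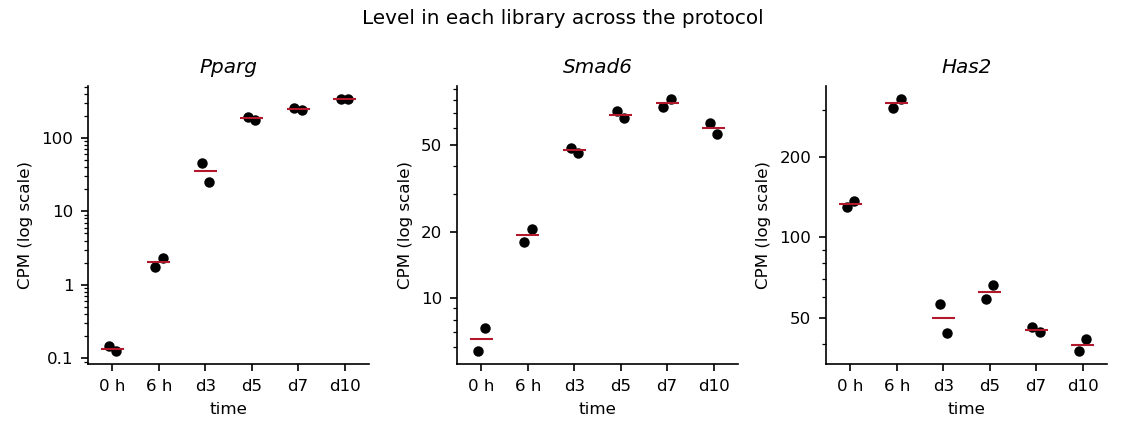
CPM on a log axis in each library (points, 2 per time) for Pparg, Smad6 and Has2 at 0 h, 6 h and days 3 to 10, with the mean as a bar. Pparg is higher at 6 h than at 0 h and higher again at each later time, Smad6 is highest at day 7, and Has2 has its highest points at 6 h and is below its 0 h level at every later time.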

How the data were processed

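Stranded libraries from 200 ng of RNA were made for 12 samples, 2 at each of 6 times. The authors deposited raw counts per gene with a gene length, and per the submitters' processing notes the aligner was STAR and the build mm10. Not given in the sources used here are the counting tool, its annotation and its use of strand. Of 17090 gene IDs, 17045 were matched to RefSeq (GRCm38.p6) symbols, 4 to GENCODE and 41 to neither.

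Genes were filtered with filterByExpr (minimum count 10, minimum total 15), scaled by TMM and tested with edgeR 4.0.16 (R 4.3.3), robust quasi-likelihood, over all 12 libraries with 1 mean per time. Calls are at a Benjamini-Hochberg adjusted p below 0.05 over 12740 genes, and intervals are 95% and unadjusted. CPM use the TMM-scaled total, and RPKM also the deposited gene length. Totals of 12820802 to 17522699 counts set the counting precision at 0 h and 6 h.

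The gene lists and the genes described were chosen with earlier results of these data known. Named were key pathway genes, the 15 highest rises and 15 deepest falls (at least 5 CPM, no overlap, no predicted genes), called list members and the 2 most abundant members of a list. On simulated 6 h against 0 h data (12665 genes) the test recovered 85.1% of 1.5-fold and 100% of 2-fold and 4-fold changes. There 9 of 199 calls were unchanged genes. The changes were placed only in genes above 5 CPM at 0 h, and every gene was given the same spread. Recovery was thus not measured for scarce genes or for genes with a wider spread. Alternatives were other scaling factors, filters and prior count, DESeq2 1.42.0, a replicate block, fits of the 4 libraries alone and each library left out. The values of 1 named gene are not reported here.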

Additional observations from a re-analysis of the deposited data

How the results depend on the processing

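Called genes numbered 68 higher and 27 lower, and 22 of the 95 were called under all 22 alternatives. No filter on low counts gave 173 higher and 102 lower (36 and 12 at 2-fold, 57 and 17 in lists). The 4 libraries alone gave 160 and 94 (46 and 12 in lists), and with their own filter 141 and 82 (42 and 11 in lists). Leaving out both day 3 libraries, an alternative chosen after seeing the data, gave 42 lower. With 1 library left out, higher calls ranged from 29 to 97 and lower from 6 to 44, those at 2-fold from 11 to 24 and from 1 to 7, and those in lists from 15 to 33 and from 0 to 7. A lone library was assumed to vary like the other groups. With a replicate block 73 genes were higher and 32 lower (20 and 5 at 2-fold, 28 and 4 in lists). The main fit did not treat replicates as pairs, since the labels do not say whether equal numbers mark the same experiment. Replicate deviations at 0 h and 6 h correlated at 0.193, the highest of any pair of times, against -0.0913 to 0.0937 for the others. Pairing between 0 h and 6 h may thus be present, and a block over those times alone was not fitted. Of 132 recomputed counts, 95 were within 1.5 times the reported count. The cause of the other 37 moves was not tested. Genes with few counts at 0 h, such as Bambi and Id4, are limited by depth.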

Other observations

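The fit of the 4 libraries alone called 254 genes, of which 164 were not called in the fit of 12 libraries. Of these 164 genes, 129 changed by less than 1.5-fold and 9 by at least 2-fold, 39 were also called without day 3 and 17 by DESeq2. A few were picked after their values were seen. F2rl1, a receptor activated by proteases, went from 3.82 and 2.84 to 0.716 and 1.36 CPM (edgeR adjusted p = 0.00962 in 4 libraries and 0.0761 in 12). Tcim, also known as TC1, went from 9.84 and 11.6 to 4.75 and 5.75 CPM (0.00135 and 0.281), and Adm, the vasodilator peptide adrenomedullin, from 14.8 and 17.6 to 9.57 and 8.09 CPM (0.00112 and 0.0602). DESeq2 called Tcim (0.00038) and Adm (0.0186) but not F2rl1 (0.734), and edgeR without day 3 called Tcim (0.00395) and F2rl1 (0.0487) but not Adm (0.0575). All 3 were lower in both 6 h libraries than in both 0 h libraries, and 34.6% of all genes tested had no overlap in either direction.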
